A study of Homo sapiens with 16 samples.

Results

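Dual specificity phosphatases of MAP kinases were followed in 16HBE human bronchial epithelial cells carrying wild-type MET or the exon 14 skipping form of the receptor. Their 9 genes (DUSP1, DUSP2, DUSP4, DUSP5, DUSP6, DUSP7, DUSP8, DUSP10 and DUSP14) were taken by the gene name of the array annotation, which gave 12 of the 58201 probes and 9 of the 42665 gene names on the array. All 9 genes had at least 1 probe among the 34600 probes that were tested. MET is the receptor of hepatocyte growth factor (HGF), and one of the pathways it activates is the RAS, RAF, MEK and ERK cascade.

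16HBE is an airway epithelial line immortalised with the SV40 large T antigen, which the cells of every group carried. The groups without the ligand were 16HBE-WT and 16HBE-ex14, those with it were 16HBE-WT+HGF and 16HBE-ex14+HGF, and each had 4 one-colour Agilent arrays, 16 in all. The 16HBE-ex14 cells were a single CRISPR-edited clone, F, so a difference between the genotypes cannot be told apart from a difference between this clone and its parental line. All cells were starved for 2 h, and HGF was then given at 20 ng/mL for 24 h, so the values describe a late time point and not the first hours after the ligand. The study describes 4 replicates from cultures a week apart, but the week of each array is not given in the sources used here, and the replicate numbers used here are names only. Every array row of the 2 slides held 1 array of each group. Values are log2 intensities minus the 75th percentile of the array, so a difference of 1 is a 2-fold difference, and the lowest values that count as well above background lie near -4.4. Levels of different genes are not compared, since each probe has its own brightness.

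MAP kinases are switched on when both a threonine and a tyrosine of their activation loop are phosphorylated, and dual specificity phosphatases remove both phosphates. DUSP6, DUSP7 and DUSP5 act chiefly on ERK, the first pair in the cytoplasm and DUSP5 in the nucleus. DUSP8 and DUSP10 act chiefly on JNK and p38, DUSP1, DUSP2 and DUSP4 are nuclear enzymes with mixed substrates, and DUSP14 is an atypical member without the kinase-binding domain. Several of these genes are themselves transcribed in response to ERK activity, so that they form a negative feedback loop in epithelial cells and elsewhere.

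Between 51% and 61.8% of spots per array were well above background, and replicate arrays correlated at 0.983 to 0.992. MET itself had group means between 4.97 and 5.16 and passed no test, but its probe (hg19 chr7:116438290-116438349) does not lie over the deleted exon and so says nothing on the edit. All 6 epithelial markers and all 5 basal airway markers were well above background on all 16 arrays. Of the basal markers, the keratins KRT5, KRT14 and KRT17 had lower means in 16HBE-ex14 cells, with KRT5 at a mean of 2.62 in 16HBE-WT against 0.05 in 16HBE-ex14 without HGF and, with it, of 2.00 against -2.26. ITGB4 had higher means there (6.41 against 6.58 without HGF and 6.42 against 6.83 with it), and TP63 was nearly level (-3.74 against -3.81, and -3.39 against -3.37). The summed linear level of all 5 basal markers, relative to the 75th percentile, ran from 82.2 to 112.7 in 16HBE-WT and from 84.4 to 111.7 in 16HBE-ex14 cells, and with HGF from 78.8 to 117.2 and from 107.02 to 125.32. ITGB4, whose probe is the brightest of the 5, makes up most of this sum, which therefore says little on the keratins. Of 8 fibroblast markers, 5 were above background on no array and 2, COL1A1 and PDGFRB, on all 16. LUM was above it on 8 arrays only, with a mean of -2.94 in 16HBE-WT and one of -6.60, below the detection limit, in 16HBE-ex14. Of 3 endothelial and 4 leukocyte markers, 2 and 3 were well above background on all 16 arrays. The part of these markers in the results below was not tested. Signals come from bulk RNA, in which fewer expressing cells and less RNA per cell cannot be told apart.

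The clearest response to HGF was that of DUSP6, the cytoplasmic phosphatase of ERK, in 16HBE-ex14 cells. Over replicates 1 to 4, its log2 values were 2.11, 1.63, 2.04 and 2.10 in 16HBE-ex14 and 3.09, 2.38, 3.73 and 3.66 in 16HBE-ex14+HGF. All 4 stimulated arrays lay above all 4 unstimulated ones. DUSP6 rose by 1.24 (SE 0.29, 95% interval 0.63 to 1.86), a 2.37-fold rise, and passed the thresholds of an adjusted p below 0.05 and a fold change above 1.5 (limma, adjusted p = 0.0310). Within slide 1 the difference was 0.86 and within slide 2 it was 1.63. DUSP6 was on average 0.49 higher on slide 2, and with slide as a block in the fit the adjusted p was 0.00846. Its probe lies on the minus strand at hg19 chr12:89742144-89742203.

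The call of DUSP6 was not kept under every scaling, filter and choice of arrays. It was lost with scaling to the array median (1.08, adjusted p = 0.0609) or to the E1A spike-in probes (1.16, adjusted p = 0.0628), without the filter on dim probes (adjusted p = 0.0628), and when only the 8 arrays of the comparison were fitted (adjusted p = 0.0998). It was lost as well without 16HBE-ex14 replicate 1 (0.0552), replicate 2 (0.114) or replicate 4 (0.0752), and without 16HBE-ex14+HGF replicate 1 (0.0530), replicate 3 (0.113) or replicate 4 (0.106), all adjusted p. The log2 rise was between 1.07 and 1.52 in every one of the 16 fits that left out 1 array.

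In 16HBE-WT cells the DUSP6 values were 1.15, 1.63, 1.81 and 1.32 without HGF and 1.16, 1.88, 2.20 and 2.12 with it. The groups overlapped, the difference was 0.36 (95% interval -0.26 to 0.98), and the adjusted p from limma was 1.00. The HGF response of DUSP6 was larger in 16HBE-ex14 than in 16HBE-WT cells by 0.88 (95% interval 0.01 to 1.76). That difference had an unadjusted p of 0.0477 in the limma fit and an adjusted p of 1.00, so it did not pass over all probes. Averaged over both genotypes, the response to HGF was 0.80 (95% interval 0.37 to 1.24), just outside the threshold (limma, adjusted p = 0.0517), and it passed with slide as a block (adjusted p = 0.0145).

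Between the genotypes DUSP6 differed by 0.49 without HGF (95% interval -0.13 to 1.11, limma, adjusted p = 0.281), with overlapping arrays. With HGF it was 1.37 higher in 16HBE-ex14 cells, or 2.59-fold (SE 0.29, limma, adjusted p = 0.00348), and the 4 arrays of each genotype did not overlap. The call held with scaling to the median, the spike-ins or quantiles and with each array left out in turn. In order of their means, the groups ran from 16HBE-WT (1.48 ± 0.30) through 16HBE-WT+HGF (1.84 ± 0.47) and 16HBE-ex14 (1.97 ± 0.23) to 16HBE-ex14+HGF (3.21 ± 0.63, each SD, n = 4). Neighbours in this order overlapped except at the last step, to 16HBE-ex14+HGF. The comparisons of HGF within a genotype and of the genotypes share arrays, so their values for a gene are not independent.

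A second probe carries the name DUSP6, but it lies on the plus strand (hg19 chr12:89746783-89746842), opposite to the first, and its accession was not found in the RefSeq table at hand. This probe passed the background limit on 10 of 16 arrays, differed by 0.23 with HGF in 16HBE-ex14 cells (95% interval -0.37 to 0.84), and was called in no comparison. When both probes were averaged, the rise of DUSP6 with HGF in 16HBE-ex14 cells was 0.74 (limma, adjusted p = 0.0470).

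DUSP5, the nuclear phosphatase of ERK, differed between the genotypes whether or not HGF was present. Its values over replicates 1 to 4 were 0.13, -0.09, 0.64 and -0.05 in 16HBE-WT and 1.08, 1.5, 0.81 and 1.27 in 16HBE-ex14 cells. With HGF they were -0.01, 0.49, -0.25 and 0.39 in 16HBE-WT+HGF and 1.85, 0.89, 1.77 and 1.27 in 16HBE-ex14+HGF cells. In both comparisons every 16HBE-ex14 array lay above every 16HBE-WT array. DUSP5 was 1.01 higher in 16HBE-ex14 cells without HGF (SE 0.24, 2.01-fold, limma, adjusted p = 0.00925) and 1.29 higher with it (SE 0.24, 2.44-fold, adjusted p = 0.00160). The call held in all 30 alternative fits of either comparison. Within slides 1 and 2 the difference was 1.27 and 0.74 without HGF and 1.13 and 1.45 with it.

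HGF itself left DUSP5 without a call in either genotype. The difference was 0.28 in 16HBE-ex14 (95% interval -0.24 to 0.79, limma, adjusted p = 0.691) and -0.0050 in 16HBE-WT cells (95% interval -0.52 to 0.51, adjusted p = 1.00). A rise of up to 0.79 in 16HBE-ex14 cells is within the interval, so a response of DUSP5 could not be detected with these arrays but is not shown to be absent. The probe lies on the plus strand at hg19 chr10:112270900-112270959.

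DUSP7, the third phosphatase with a preference for ERK, was near the detection limit. It was well above background on 1 array of 16HBE-WT, 0 of 16HBE-WT+HGF, 2 of 16HBE-ex14 and 4 of 16HBE-ex14+HGF. With HGF, the values in 16HBE-ex14 cells were -3.79, -4.31, -4.12 and -3.87, against -4.35, -4.84, -4.51 and -4.20 without it. The arrays overlapped and the difference of 0.45 (95% interval 0.08 to 0.82) did not pass (limma, adjusted p = 0.224). In 16HBE-WT+HGF cells, where no array measured it above background, only a bound can be given. By it, the mean of the brighter 16HBE-ex14+HGF group was at least 1.08-fold higher, but the arrays overlapped and the difference did not pass (limma, adjusted p = 0.132). DUSP7 was well above background on enough arrays to be tested only through 16HBE-ex14+HGF. The bound compares the mean of the brighter group with, per array of the dimmer group, the higher of the probe's own value and the lowest value well above background. The 60 bases of this probe are spread over 1535 bases of hg19 in the annotation (chr3:52088352-52089886, minus strand).

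**Figure D1:**
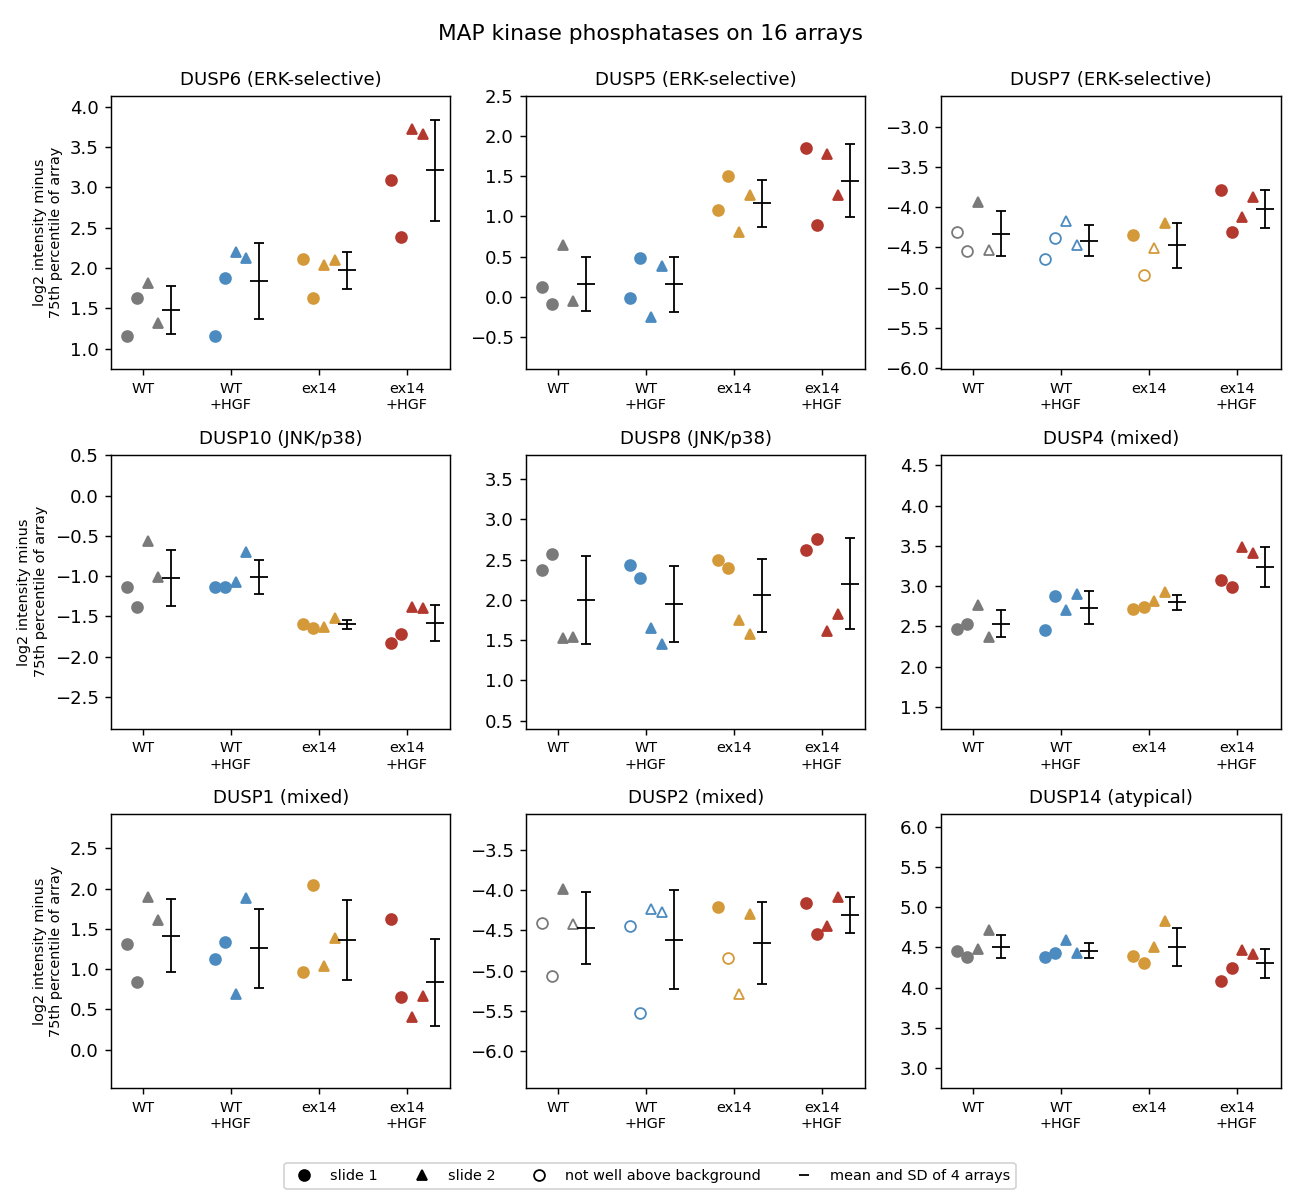
Log2 intensity minus the 75th percentile of the array (y axis) of 9 phosphatase genes on 16 arrays, in 4 groups along the x axis. Each symbol is 1 array (circles on slide 1, triangles on slide 2, open where the probe was not well above background), bars are the mean ± SD of 4 arrays, and all panels span the same range of 3.4 log2 units. DUSP6 stands highest in 16HBE-ex14+HGF, DUSP5 is higher on every 16HBE-ex14 array with or without HGF, DUSP10 is lower there, and DUSP8 falls apart by slide.

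Among the phosphatases of JNK and p38, DUSP10 ran the other way from DUSP5 between the genotypes and did not respond measurably to HGF. Its values were -1.13, -1.39, -0.56 and -1.01 in 16HBE-WT and -1.60, -1.65, -1.63 and -1.52 in 16HBE-ex14 cells. With HGF they were -1.14, -1.14, -1.07 and -0.70 in 16HBE-WT+HGF and -1.83, -1.72, -1.39 and -1.40 in 16HBE-ex14+HGF cells. In either condition all 4 arrays of 16HBE-ex14 cells lay below all 4 arrays of 16HBE-WT cells.

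The genotype difference of DUSP10 was -0.58 without HGF (SE 0.16, 95% interval -0.92 to -0.23, limma, adjusted p = 0.0224) and -0.57 with HGF (SE 0.16, 95% interval -0.92 to -0.23, adjusted p = 0.0207). Both passed the adjusted p, and both fell just short of the fold change limit, which is 0.585 on the log2 scale, so that DUSP10 was not called. The call appeared without HGF when 16HBE-WT replicate 1 (-0.61), 16HBE-WT replicate 2 (-0.70) or 16HBE-ex14 replicate 4 (-0.60) was left out. With HGF it appeared without 16HBE-WT+HGF replicate 1 (-0.61), 2 (-0.62) or 3 (-0.59) and without 16HBE-ex14+HGF replicate 3 (-0.64) or 4 (-0.63). The difference was negative in every alternative fit, and with scaling to the median the adjusted p rose above 0.05 in both comparisons. With 1 array left out, the highest adjusted p from limma was 0.0629 without HGF and 0.0687 with HGF. Within the slides it was -0.36 and -0.79 without HGF and -0.64 and -0.51 with HGF.

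With HGF DUSP10 differed by 0.01 in 16HBE-ex14 cells (95% interval -0.33 to 0.36) and by 0.01 in 16HBE-WT cells (95% interval -0.34 to 0.36), and a change of more than 0.36 in either direction is outside both intervals. Its probe on the minus strand of hg19 chr1:221875773-221875832, printed here because the DUSP10 values rest on this oligonucleotide alone, is 60 bases long.
DUSP10 probe: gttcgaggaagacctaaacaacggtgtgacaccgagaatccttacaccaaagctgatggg

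DUSP8, the other phosphatase of JNK and p38, gave no call in any comparison. Its brightest probe (hg19 chr11:1575282-1575341, minus strand) had values of 2.37, 2.57, 1.52 and 1.54 in 16HBE-WT and 2.50, 2.39, 1.75 and 1.58 in 16HBE-ex14 cells. With HGF the values were 2.43, 2.27, 1.65 and 1.45 in 16HBE-WT+HGF and 2.62, 2.75, 1.61 and 1.83 in 16HBE-ex14+HGF cells. In all 4 groups both arrays of slide 2, replicates 3 and 4, were below both arrays of slide 1, by 0.87 on average. The HGF response in 16HBE-ex14 cells was 0.15 (95% interval -0.58 to 0.87), and the genotype difference was 0.06 without HGF (95% interval -0.66 to 0.78) and 0.25 with it (95% interval -0.47 to 0.97). Another DUSP8 probe was also lower on slide 2 in all 4 groups, by 0.59 on average, and the dimmest, well above background on 9 arrays, was 0.31 higher there. Neither was called in any comparison.

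Of the nuclear phosphatases with mixed substrates, DUSP4 had its highest mean in 16HBE-ex14+HGF cells, like DUSP6, but was not called. Its values were 2.71, 2.74, 2.81 and 2.93 in 16HBE-ex14 cells and 3.07, 2.99, 3.49 and 3.41 in 16HBE-ex14+HGF cells. They were 2.47, 2.53, 2.76 and 2.37 in 16HBE-WT and 2.45, 2.88, 2.70 and 2.90 in 16HBE-WT+HGF cells. All 4 arrays of 16HBE-ex14+HGF lay above all 12 others. The response to HGF was 0.44 in 16HBE-ex14 cells (95% interval 0.15 to 0.73, limma, adjusted p = 0.115) and 0.20 in 16HBE-WT cells (95% interval -0.09 to 0.49, adjusted p = 1.00). With HGF the genotypes differed by 0.50 (95% interval 0.21 to 0.80, adjusted p = 0.0161), which passed the adjusted p and missed the fold change limit. That limit was passed with scaling to the array median (0.60, adjusted p = 0.0208) and without 16HBE-ex14+HGF replicate 2 (0.59). The highest adjusted p of this comparison from limma was 0.0554 with 1 array left out and 0.0640 in the other alternative fits.

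DUSP1, an immediate early gene whose product acts on JNK, p38 and ERK, showed no call and a wide spread. Its values were 0.96, 2.05, 1.04 and 1.39 in 16HBE-ex14 cells and 1.62, 0.65, 0.40 and 0.67 in 16HBE-ex14+HGF cells. The difference of -0.52 had a 95% interval from -1.22 to 0.18 (limma, adjusted p = 0.524), and the arrays overlapped. In 16HBE-WT cells the values ran from 0.84 to 1.90 without HGF and from 0.69 to 1.88 with it. Each of these values is a mean over 10 spots of the same probe (hg19 chr5:172195296-172195355, minus strand), whereas the other members have 1 spot per probe.

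DUSP2, best known from lymphocytes, was well above background on 7 of the 16 arrays, 4 of them in 16HBE-ex14+HGF, 2 in 16HBE-ex14, 1 in 16HBE-WT and 0 in 16HBE-WT+HGF. Its values ran from -5.53 to -3.98 over all arrays, around the detection limit, and no comparison was called. DUSP14 was bright and varied little, with all 16 arrays between 4.08 and 4.83. Its HGF response in 16HBE-ex14 cells was -0.21 (95% interval -0.47 to 0.06, limma, adjusted p = 0.514), and its genotype differences were -0.0036 without HGF and -0.16 with it.

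Counted over all members, limma called 1 of 9 for HGF in 16HBE-ex14 cells, DUSP6, against 2.11% of all 26368 genes tested by their brightest probe. The median change of the 9 members was 0.28 and that of all genes 0.06. DUSP2 and DUSP7 passed the filter of 4 arrays only through the 16HBE-ex14+HGF arrays, and without both the median over the other 7 members was 0.15 and the count of calls was the same in each comparison. In 16HBE-WT cells limma called 0 of 9 members and 0% of all genes. At an unadjusted p below 0.05 it was 0 of 9 members and 4.71% of all genes there, with a member median of -0.05. Between the genotypes without HGF 1 of 9 was called, DUSP5, against 9.25% of all genes, and with HGF 2 of 9, DUSP5 and DUSP6, against 10.7%. On the adjusted p alone the counts were 2 of 9 against 18.2% and 4 of 9 against 20.6%. For the difference of the HGF responses limma called 0 members and 0% of genes, and at an unadjusted p below 0.05 it was 1 of the 7 members other than DUSP2 and DUSP7, DUSP6, against 4.6%. For HGF averaged over both genotypes it was 0 of 9, against 1.16%.

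Without overlap between arrays, DUSP6 and DUSP4 were higher with HGF in 16HBE-ex14 cells, as were 4.48% of all genes, and 0 members were lower, against 4.47%. DUSP5 was higher and DUSP10 lower in 16HBE-ex14 than in 16HBE-WT cells without HGF, where 11.4% of all genes were higher and 9.8% lower in the same sense. With HGF, DUSP6, DUSP5 and DUSP4 were higher and DUSP10 lower, against 12.5% and 11.6% of all genes. No member had groups without overlap for HGF in 16HBE-WT cells, against 1.59% of genes higher and 0.911% lower.

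**Figure D2:**
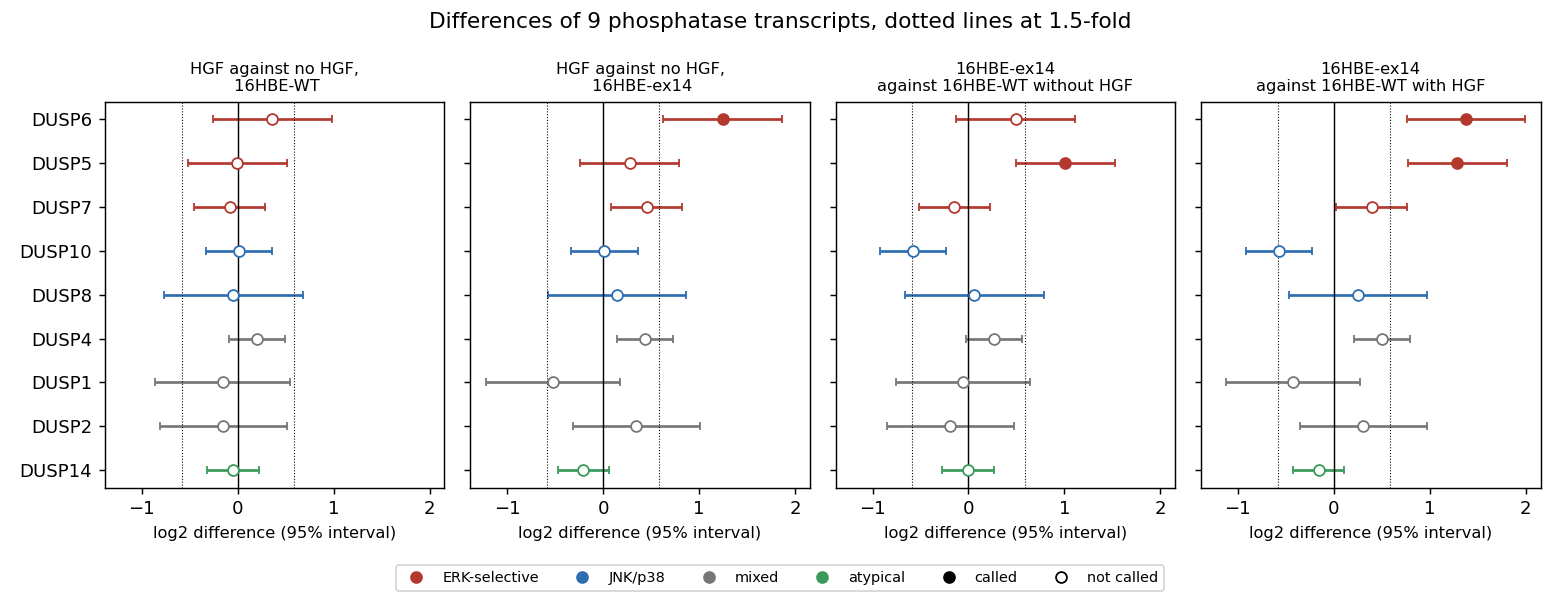
Log2 differences (x axis, with 95% intervals) of 9 phosphatase genes (y axis) in 4 comparisons, coloured by substrate class; filled points passed the adjusted p of 0.05 and the 1.5-fold limit drawn as dotted lines. The only filled points are DUSP6 for HGF in 16HBE-ex14, DUSP5 for the genotypes without HGF, and both for the genotypes with HGF, while DUSP10 sits at -0.58 and -0.57 in the genotype comparisons, next to the limit.

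To set the substrate classes side by side, each gene was centred on its 16HBE-WT mean and averaged within its class on every array. These means are given as a description, with no test over the members. The ERK-selective mean of DUSP5, DUSP6 and DUSP7 was 0.09 ± 0.24 in 16HBE-WT+HGF cells, 0.45 ± 0.14 in 16HBE-ex14 cells and 1.11 ± 0.38 in 16HBE-ex14+HGF (SD, n = 4), with an SD of 0.27 in 16HBE-WT. The JNK/p38 mean of DUSP8 and DUSP10 was -0.02 ± 0.17, -0.26 ± 0.21 and -0.18 ± 0.18 in the same groups, with an SD of 0.16 in 16HBE-WT.

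The difference of both classes on the same array, which a common scaling factor cannot change, was 0.11 ± 0.37 in 16HBE-WT+HGF cells, 0.71 ± 0.28 in 16HBE-ex14 cells and 1.29 ± 0.53 in 16HBE-ex14+HGF cells. On single arrays of 16HBE-ex14+HGF it was 1.37, 0.52, 1.73 and 1.52, with replicate 2 lowest, and on those of 16HBE-ex14 it was 0.55, 0.44, 0.77 and 1.08. All 8 arrays of 16HBE-ex14 cells lay above the highest 16HBE-WT array, at 0.41, and above the highest 16HBE-WT+HGF array, at 0.36. Without DUSP7, which was near the detection limit, an alternative chosen after the values were seen, the difference was 0.20 ± 0.42, 1.01 ± 0.23 and 1.69 ± 0.64. Of the genes in this contrast, DUSP5 and DUSP10 separated the genotypes on every array and DUSP6 separated 16HBE-ex14+HGF from the rest.

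**Figure D3:**
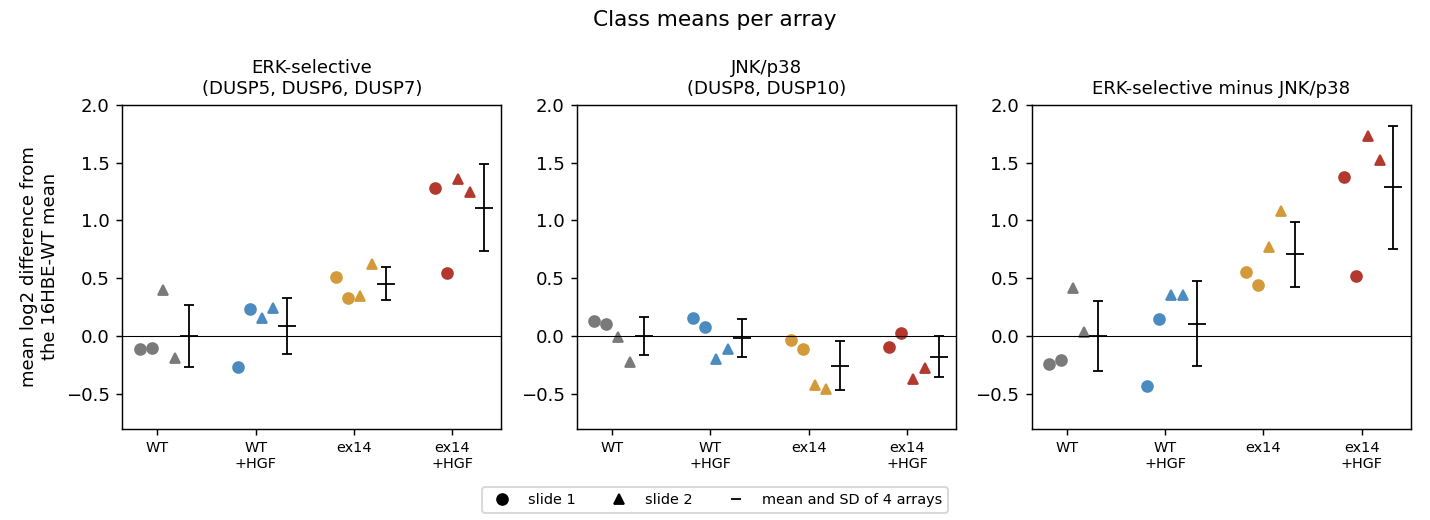
Mean log2 difference from the 16HBE-WT mean (y axis) per array for the ERK-selective class, the JNK/p38 class and the difference between them, in 4 groups along the x axis (circles slide 1, triangles slide 2, bars the mean ± SD of 4 arrays). The difference of the classes averages 0.71 in 16HBE-ex14 cells and 1.29 in 16HBE-ex14+HGF cells, against 0.11 in 16HBE-WT+HGF.

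Sequence before the start of transcription is shown for DUSP6, DUSP10 and DUSP1, since they stand for a called rise with HGF, a lower level in 16HBE-ex14 cells and an immediate early gene without a call. Each run is the 250 bases before the gene start in RefSeq on GRCh38.p14, 5′ to 3′ on the minus strand where all 3 genes lie, and is not on the hg19 build of the probe positions. DUSP6 is at chr12:89352502-89352751, DUSP10 at chr1:221742090-221742339 (the upstream of 2 starts in the table) and DUSP1 at chr5:172771196-172771445. Capitals mark a CRE (TGACGTCA) or a TATA box (TATAAA), the motifs found among 4 that were searched on both strands.
DUSP6: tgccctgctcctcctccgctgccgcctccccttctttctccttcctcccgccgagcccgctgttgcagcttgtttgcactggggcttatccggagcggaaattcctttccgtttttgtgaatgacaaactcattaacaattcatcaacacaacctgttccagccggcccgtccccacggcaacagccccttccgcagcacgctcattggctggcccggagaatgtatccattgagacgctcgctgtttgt
DUSP10: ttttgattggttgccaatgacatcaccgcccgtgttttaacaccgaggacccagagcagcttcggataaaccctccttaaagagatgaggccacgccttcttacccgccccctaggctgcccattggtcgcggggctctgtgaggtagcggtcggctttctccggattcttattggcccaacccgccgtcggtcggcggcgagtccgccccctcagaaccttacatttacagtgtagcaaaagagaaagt
DUSP1: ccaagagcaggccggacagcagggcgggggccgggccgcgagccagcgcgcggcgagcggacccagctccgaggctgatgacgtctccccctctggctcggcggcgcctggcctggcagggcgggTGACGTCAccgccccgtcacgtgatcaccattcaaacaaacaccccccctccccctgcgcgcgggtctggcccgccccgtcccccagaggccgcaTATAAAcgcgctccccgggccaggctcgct

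The other motifs searched were AP-1 (TGANTCA) and the ETS core (CCGGAA), and none of the searched motifs overlapped another in these runs. The DUSP1 sequence held 1 CRE, 125 bases before the start, and 1 TATA box, 30 bases before it. The DUSP6 and DUSP10 sequences held none of the 4 motifs. Of 35114 promoters of the same length, 1.65% held the CRE, 6.57% AP-1, 14.5% the ETS core and 10.7% the TATA box. Among the 7 members searched, DUSP8 also held the CRE, at 2 places. These are matches of letters in a short window and not sites shown to be bound. DUSP4 and DUSP5 are not among the sequences shown.

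Genes whose pattern over the 16 arrays was most like that of DUSP6 were sought among 26335 genes by Pearson's r, as a description, since the arrays share groups and slides. The closest was DUSP4 (r = 0.95), followed by SPRY4 (0.94), a Sprouty inhibitor of receptor tyrosine kinase signalling, OAF (0.94), MAMDC2 (0.93) and WWTR1 (0.93), which encodes the transcriptional coactivator TAZ. For DUSP10 the closest were FAM20C (0.95), a kinase of secreted proteins, HACE1 (0.95), a ubiquitin ligase, GATM (0.93), an enzyme of creatine synthesis, TMEM181 (0.93) and EIF2AK2 (0.93), the kinase PKR that responds to double-stranded RNA.

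Genes that ERK activity is known to induce were examined as a list of 20 without the members, 19 of which were tested. With HGF in 16HBE-ex14 cells 5 of 19 rose and 0 fell, against 2.11% of all genes called in either direction. The list median was 0.43 against 0.06 for all genes. Without EGR3, which passed the filter only through the 16HBE-ex14+HGF arrays, 5 of 18 rose and the median was 0.429. The Sprouty genes SPRY4 (1.28, SE 0.29, limma, adjusted p = 0.0259) and SPRY1 (0.76, SE 0.14, adjusted p = 0.00784) rose, as did the ETS factors ETV4 (1.23, SE 0.26, adjusted p = 0.0178) and ETV5 (0.79, SE 0.16, adjusted p = 0.0169) and the AP-1 subunit FOSL1 (0.94, SE 0.19, adjusted p = 0.0168). For each of these 5 genes the stimulated arrays lay above the unstimulated ones without overlap, as for 4.48% of all genes. They were named for their call on the same arrays, so the lack of overlap is no separate support. The immediate early genes EGR1 (-0.11) and FOS (-0.53) did not pass.

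With scaling to the array median or to the spike-ins the count was 2 of 19, with normexp background correction it was 3, and with quantiles or slide as a block it was 5. ETV4 was called under all 6 settings, and SPRY1 under 5. In 16HBE-WT cells limma called 0 of the 19, with 1 at an unadjusted p below 0.05, against 4.71% of all genes. The list median there was 0.13 against 0.04 for all genes.

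Between the genotypes without HGF, 2 of 19 ERK output genes were higher in 16HBE-ex14 cells and 0 lower, which is near the 9.25% of all genes called. They were PHLDA1 (0.84, SE 0.16, limma, adjusted p = 0.00196), which encodes a pleckstrin homology-like protein, and FOSL1 (0.60, SE 0.19, adjusted p = 0.0454). EGR3 passed the filter of 4 arrays only through the 16HBE-ex14+HGF arrays, and without it, with HGF, 5 of 18 were higher and 0 lower, against 10.7% of all genes, with a list median of 0.39. These were SPRY4 (1.35, SE 0.29, limma, adjusted p = 0.00364), PHLDA1 (1.27, SE 0.16, adjusted p = 7.07e-05), FOSL1 (1.10, SE 0.19, adjusted p = 0.00107), ETV5 (0.88) and SPRED1 (0.59). EGR3 itself was well above background on 0 of 4 16HBE-WT+HGF arrays and 3 of 4 16HBE-ex14+HGF arrays. Only the bound given for DUSP7 applies, at least 1.32-fold higher in 16HBE-ex14+HGF.

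Outputs of the JNK and p38 pathways, 12 genes and all of them tested, showed 0 higher and 1 lower with HGF in 16HBE-ex14 cells, against 2.11% of all genes, with a list median of -0.29. Between the genotypes 0 were higher and 2 lower both without and with HGF, against 9.25% and 10.7% of all genes. The gene that fell was JUND, an AP-1 subunit, by 0.63 (SE 0.09, limma, adjusted p = 0.00271), and with normexp it was not called. JUND was also lower in 16HBE-ex14 than in 16HBE-WT cells, with a log2 difference of -0.63 without HGF (adjusted p = 0.000364) and of -1.02 with it (adjusted p = 6.02e-06), the former under 3 of the 6 settings and the latter under all 6. PTGS2, the inducible cyclooxygenase, was lower without HGF (adjusted p = 0.0296), but it was well above background on 4 of 4 16HBE-WT and 1 of 4 16HBE-ex14 arrays, so that by the same bound it was at least 1.52-fold higher in 16HBE-WT cells. With HGF in both genotypes, GADD45A, a growth arrest gene, was lower in 16HBE-ex14 than in 16HBE-WT cells (-0.76, SE 0.12, limma, adjusted p = 0.000606). In 16HBE-WT cells limma called 0 of 12 with HGF, with 1 at an unadjusted p below 0.05, against 4.71% of all genes. The list median there was -0.10.

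**Figure D4:**
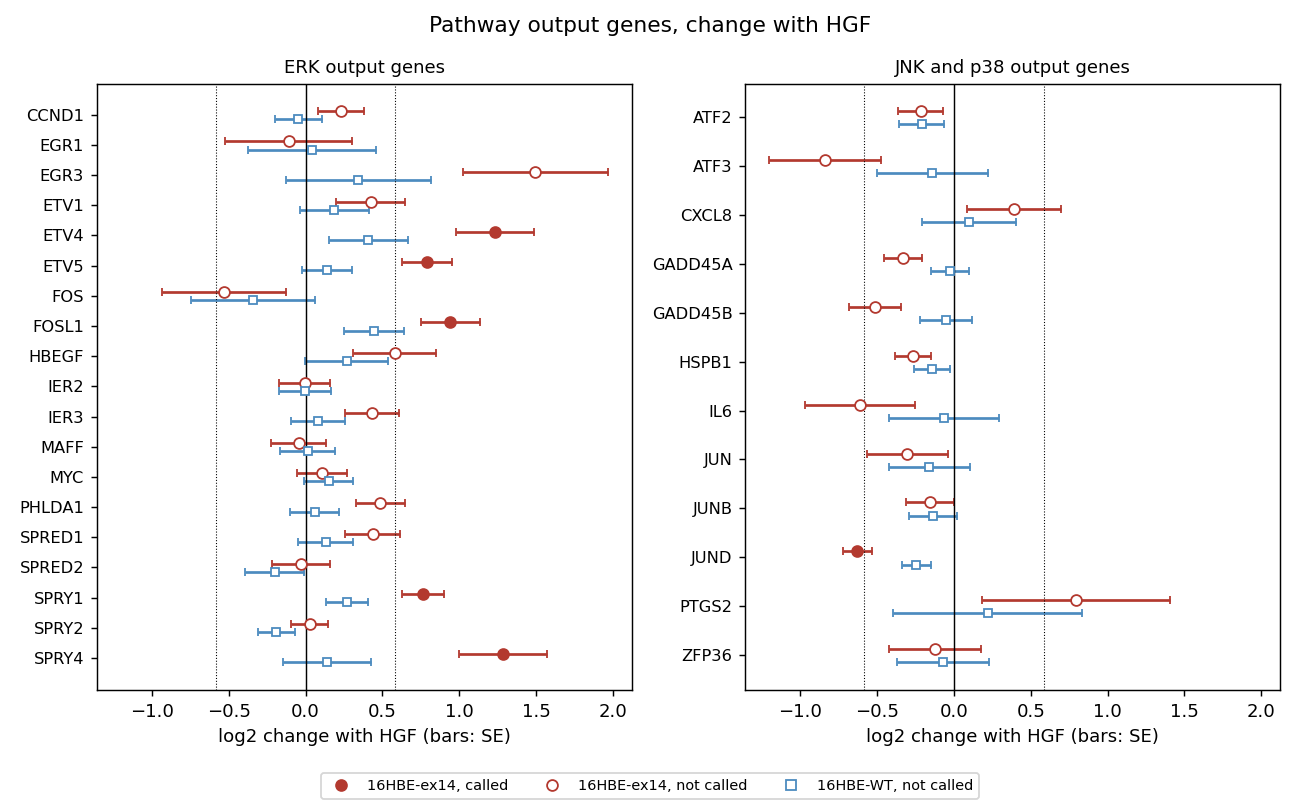
Log2 change with HGF (x axis, bars are SE) of 19 ERK output genes and 12 JNK and p38 output genes (y axis) in 16HBE-ex14 (circles, filled where called) and 16HBE-WT cells (squares, none called). SPRY1, SPRY4, ETV4, ETV5 and FOSL1 are filled on the side of a rise and JUND on the side of a fall.

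The kinases of the MAP kinase pathways gave no call with HGF. In either genotype limma called 0 of 9 ERK pathway kinases and 0 of 12 tested JNK and p38 pathway kinases. The shares of all genes were 2.11% in 16HBE-ex14 and 0% in 16HBE-WT cells. At an unadjusted p below 0.05 there were 1 and 3 in 16HBE-ex14 cells, against 4914 of all 34600 tested probes. In 16HBE-WT cells there were 0 of both lists, against 4.71% of all genes. Between the genotypes 3 of the 12 JNK and p38 kinases were called in either condition, against 9.25% of all genes without HGF and 10.7% with it, and 0 and 1 of the 9 ERK pathway kinases. Without HGF, MAPK11, which encodes p38 beta, was 0.90 higher in 16HBE-ex14 cells (SE 0.11, limma, adjusted p = 5.13e-05), MAPK8, which encodes JNK1, was 0.64 higher (SE 0.15, adjusted p = 0.00752), and MAP2K6, an activator of p38, was 0.59 lower (log2 difference -0.59, adjusted p = 0.0473). With HGF, MAPK8 (0.84), MAP2K3 (0.79) and MAPK11 (0.67) were higher, and of the ERK pathway kinases MAPK3, which encodes ERK1, was lower (-0.60, adjusted p = 0.000747).

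Of the other phosphatases of MAP kinases, 3 of 5 were tested and 1 was called in each genotype comparison, against the same shares of all genes. PTPRR, a tyrosine phosphatase of ERK and p38, was lower in 16HBE-ex14 cells, with a log2 difference of -0.66 without HGF (SE 0.21, limma, adjusted p = 0.0455) and of -0.96 with it (SE 0.21, adjusted p = 0.00532). DUSP16, a phosphatase of JNK, did not pass without HGF (adjusted p = 0.0752) and was well above background on 2 of 4 16HBE-WT arrays. Among 12 further atypical dual specificity phosphatases, of which 10 were tested, limma called 0 in every comparison, against the gene shares given above. At an unadjusted p below 0.05 there were 2 for HGF in 16HBE-ex14 cells, against 4914 of all 34600 tested probes. In 16HBE-WT cells there were 0, against 1694 of these probes. Between the genotypes there were 2 without HGF and 1 with it, against 10471 and 10973 of these probes. Over the 6 settings of scaling, background correction and slide, MAP2K6 and PTPRR without HGF were each called under 2 and MAPK3 with HGF under 3. DUSP16 without HGF was called under 2 as well, and its difference was positive under 5.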

How the data were processed

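Gene expression was measured on 16 one-colour Agilent arrays. The authors deposited, per the file headers, the processed signal intensity of each spot from Feature Extraction 10.7.3.1, on a linear scale after background subtraction and detrending and with no scaling between arrays. Each array was searched for 12 member probes, none of them saturated.

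After removal of outlier spots, log2 intensities were lowered by their array's 75th percentile and averaged over the spots of each probe. The 34600 of 58201 probes that were well above background on 4 or more arrays were fitted with limma 3.58.1 in R 4.3.3, with 1 mean per group and empirical Bayes moderation over all 16 arrays. Contrasts were HGF in 16HBE-ex14 and in 16HBE-WT cells, the genotype difference in unstimulated and in stimulated cells, the difference of the HGF responses and their average. Adjusted p values are Benjamini-Hochberg values over all tested probes. Calls needed an adjusted p below 0.05 and a fold change above 1.5. A gene is represented by its brightest probe. The precision of these intensities is limited by the number of arrays. Without a stated origin of each array, p values measure the spread between arrays, which may be partly technical. The fit was tested on simulated data. Figures and promoter searches used Python 3.11.15, pandas 2.3.3 and matplotlib 3.10.9. Probe positions were read from the annotation, which uses hg19.

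Members, gene lists and tests were chosen with earlier results of these data known. Named are all members, MET, up to 4 called genes of each list and contrast by size, completed where a list had 5 or 6, and the 5 genes most like DUSP6 and DUSP10. Marker genes and sequences were chosen likewise. Alternatives were normexp background correction, quantile, median and spike-in scaling, other filters, outlier spots kept, slide or slide row as a block, another prior, array weights, joint adjustment, no fold limit, only the compared arrays, the mean of all probes, and each array left out. List counts under the scalings, class means without DUSP7 and counts without genes that passed the filter only through 16HBE-ex14+HGF were added after seeing the data.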

Additional observations from a re-analysis of the deposited data

Results flagged for a closer look

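Over 36 groups of 4 arrays, 9 genes in 4 groups, 3 arrays stood apart from the other 3 of their group by Dixon's test, where chance gives about 1 in 20. DUSP6 was lowest in 16HBE-ex14 replicate 2, at 1.63, against 2.04 for the nearest array. DUSP10 was highest in 16HBE-WT+HGF replicate 4, at -0.70, against -1.07. DUSP2 was lowest in 16HBE-WT+HGF replicate 2, at -5.53, against -4.44, where none of the group's arrays was well above background. Without 16HBE-ex14 replicate 2, the HGF response of DUSP6 was 1.13 (limma, adjusted p = 0.114).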

How the results depend on the processing

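Over 30 alternative settings, 1578 values of single members were recomputed. Of these, 1548 kept their side of the threshold, 10 lost a call, 20 gained one and 0 called values reversed. The 1548 include 92 values without a call that changed sign. The count of members called for HGF in 16HBE-ex14 was 0 with median scaling, spike-in scaling, no filter on dim probes or only the compared arrays. For HGF averaged over genotypes it was 1, DUSP6, with normexp, quantile normalization, either stricter filter, slide as a block, the trended and robust prior, array weights or joint adjustment. Without the fold change limit it was 2 for the genotypes without HGF and 4 with HGF. With 1 array left out it ranged from 0 to 1 for HGF in 16HBE-ex14, 1 to 2 for the genotypes without HGF, 2 to 3 with HGF and 0 to 1 for HGF averaged, and was 0 for HGF in 16HBE-WT and for the difference of responses. For HGF averaged, the DUSP6 call appeared without 16HBE-WT+HGF replicate 1 (0.92) or 16HBE-ex14+HGF replicate 2 (0.94). Unless an alternative used fewer genes or arrays, the cause was not tested.

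Arrays of the same number were not paired. Their deviations correlated at 0.03 to 0.32, against -0.36 to 0.41 for other numbers, and 4 of 16 arrays matched their own number best, against 16 their own slide. With slide and row as a replicate block, 1 member was called for HGF averaged (DUSP6, adjusted p = 0.0316), and no other count of members changed. Scaling to the array median moved the median change of all probes with HGF in 16HBE-ex14 from 0.05 to -0.11 and the genotype difference without HGF from -0.02 to 0.12. The stricter filters left out DUSP2 and DUSP7, which lay near background, where a change is hard to measure. Fitting only the compared arrays was not run for the difference and the average, which use all groups.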
